A study of Mus musculus with 127 samples.

Results

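Alas2, Alas1 and Clpx are 3 of the 24320 gene symbols in the expression table, taken by name and each read from the transcript row with the highest mean level: NM_001102446 for Alas2, NM_020559 for Alas1 and NM_001044389 for Clpx. They encode the enzyme of the first and rate-limiting step of heme synthesis, in its erythroid form (Alas2) and its housekeeping form (Alas1), and the ATP-driven unfoldase that acts on the erythroid form in mitochondria (Clpx). Expression was measured in 127 single mouse marrow cells labelled erythroblasts, of strain C57BL/6J, and every cell was deposited as its own sample. There were 48 cells of mice with Flvcr deleted, 31 cells of wild-type mice given erythropoietin (EPO), which stimulates erythropoiesis, and 48 cells of wild-type mice. Flvcr is the heme exporter of the plasma membrane, and its loss is known to leave heme inside erythroid precursors. Allele, promoter of the deleter, age, EPO dose and number of mice were not given in the sources used here. Flvcr-deleted and wild-type cells each came from 1 capture chip and EPO-treated cells from 2, so the group and the chip cannot be told apart. No animal was named, so each group was treated as 1 sample. Differences between groups below are therefore descriptions with no test, and every standard deviation (SD) is over cells.

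The labels put each cell in a class, A to D. Imaged Ter119, a surface protein that increases as erythroid cells mature, had a higher median in each class than in the one before it within every group. In class D its normalized value was 0.828 to 1 in Flvcr-deleted, 0.358 to 0.912 in EPO-treated and 0.759 to 1 in wild-type cells. In class B it was 0.313 to 0.494 in Flvcr-deleted, 0.00064 to 0.197 in EPO-treated and 0.330 to 0.541 in wild-type cells. In class C it was 0.574 to 0.727 in Flvcr-deleted, 0.00263 to 0.366 in EPO-treated and 0.551 to 0.741 in wild-type cells. A class letter thus did not span the same Ter119 range in EPO-treated cells. In classes B and C their range did not overlap that of either other group, so contrasts with them there set cells of unlike normalized Ter119 side by side. The lower ends of these 2 EPO-treated ranges came from the smaller EPO-treated chip. All 4 of its cells, of classes A to C, lay at 0.00263 or less. On the other EPO-treated chip class B started at 0.0387 and class C at 0.208. Whether normalized values can be compared between chips was not tested. Levels were RPKM, reads scaled to transcript length and to library depth, and detection means an RPKM of 1 or more. Cells differed in the number of genes detected, with medians of 1069 in Flvcr-deleted, 1441 in EPO-treated and 2422 in wild-type cells. Read totals per cell were not used, since the table holds no counts. Globin genes made up 10% or more of summed RPKM in 26 of 30 Flvcr-deleted, 24 of 24 EPO-treated cells and 42 of 42 wild-type ones in classes B to D; the exceptions were Flvcr-deleted class B cells 7, 13, 16 and 40, at 0.320% to 2.71%. In class A part of the cells went against the erythroblast label: 1 of 18 Flvcr-deleted, 3 of 7 EPO-treated cells and 4 of 6 wild-type ones had at least 3 of 14 granulocyte and monocyte markers, and no class B to D cell of any group had as many. Class A is given apart from the other classes for that reason. Of the markers of other cells, none of 14 granulocyte and monocyte, 8 B cell, 6 T and NK cell or 5 progenitor genes had a mean log2(RPKM + 1) of 1 over all cells, and 1 of 6 megakaryocyte genes did. That gene, Gp9, which encodes a platelet surface glycoprotein, counted as lower by the rule given below, at -2.85 in Flvcr-deleted and -2.25 in EPO-treated against wild-type cells; it was detected in 0 of 30 Flvcr-deleted (exact upper bound 11.6%), 3 of 24 EPO-treated and 21 of 42 wild-type class B to D cells. The summed RPKM of the 6 megakaryocyte genes in classes B to D was 0 in every Flvcr-deleted cell, 0 to 191 in EPO-treated and 0 to 676 in wild-type cells, with Pf4, Ppbp, Gp1bb and Gp6 at 0 throughout, and its part in the results below was not tested.

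ALA synthase joins glycine and succinyl-CoA in the mitochondrion to make 5-aminolevulinic acid, from which all heme is built. Erythroid cells use the X-linked gene Alas2, which is transcribed under GATA1 and KLF1 and whose mRNA carries an iron-responsive element, a stem-loop that iron regulatory proteins bind to hold back translation when iron is scarce. Alas1 serves other cell types and is held down by heme. CLPX is known from yeast and zebrafish to help load the pyridoxal phosphate cofactor onto ALA synthase, and in human cells it works with the protease CLPP in turnover of the enzyme. These are mRNA levels and hold no measure of ALA synthase protein or activity.

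The sequences below show where these 3 genes differ in the motifs of such factors. They were read from RefSeq's promoter windows for the mouse build GRCm38.p6 (windows of 250 bases before an annotated start) and from GENCODE vM21 transcripts on GRCm38, which is another build than the mm9 of the deposited table, so only the gene names link them to the levels. Both strands were searched for 3 motifs. AGATAA, of the kind that GATA1 binds, was found in 9.99% of 32851 mouse windows of this length. CCACCC, of the kind that KLF1 binds, was found in 28.1% of them, and GCATGCGC, the core of the motif of nuclear respiratory factor NRF1, in 2.26%. A match is a match of letters and not a measured site. Upstream of Alas2, chrX:150547167-150547374 on the plus strand holds 1 AGATAA, read on the opposite strand as the capitals below, starting 44 bases before the first exon of NM_009653 and 128 bases before that of NM_001102446, the transcript read for the levels. The window also holds 3 CCACCC motifs that overlap each other, within chrX:150547371-150547400; they lie inside the first exon of NM_009653 and upstream of that of NM_001102446. The last Alas2 sequence, chrX:150547459-150547485, lies in exon 1, in the 5' untranslated region, and holds the iron-responsive element, with its bulged C and its loop in capitals; the same pattern was in no 5' untranslated region of an annotated Alas1 or Clpx transcript. The window upstream of Clpx, chr9:65294010-65294259 on the plus strand, has no AGATAA, 1 CCACCC and 1 NRF1 core, its motifs being the capitals below, and 30 bases of 1 of the 2 Alas1 windows, chr9:106247906-106247935 on the minus strand, hold the same core as a palindrome. That stretch is upstream of the start of NM_001291835 but inside the first exon of NM_020559, the Alas1 transcript read for the levels. The other Alas1 window has no NRF1 core and 1 CCACCC, and neither has an AGATAA.
Alas2 upstream: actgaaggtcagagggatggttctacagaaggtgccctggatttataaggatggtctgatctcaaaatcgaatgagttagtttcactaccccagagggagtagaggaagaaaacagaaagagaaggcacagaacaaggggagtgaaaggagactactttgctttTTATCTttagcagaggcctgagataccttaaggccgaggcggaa
Alas2 KLF1-type motifs: ggaaggGGGTGGGGTGGGGTGGgcggggct
Alas2 iron-responsive element: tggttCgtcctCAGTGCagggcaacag
Clpx upstream: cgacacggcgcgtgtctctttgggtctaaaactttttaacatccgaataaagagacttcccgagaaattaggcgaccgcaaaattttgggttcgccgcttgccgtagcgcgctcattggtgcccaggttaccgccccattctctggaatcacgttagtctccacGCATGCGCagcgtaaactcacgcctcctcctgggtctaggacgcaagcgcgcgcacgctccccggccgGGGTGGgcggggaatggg
Alas1 NRF1 core: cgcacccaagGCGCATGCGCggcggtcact

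Alas2 was the only member of the 3 that was a highly expressed gene. Its mean over all cells was 6.73 on the log2(RPKM + 1) scale, above 99.6% of all symbols, against 0.91 for Clpx and 0.35 for Alas1. Its share of cells was 68.8% in the Flvcr-deleted group (33 of 48 cells, exact 95% interval 53.7% to 81.3%), 77.4% in the EPO-treated group (24 of 31, 58.9% to 90.4%) and 87.5% in the wild-type group (42 of 48, 74.8% to 95.3%); intervals here and below are Clopper-Pearson and cover counting error only. In every group its mean was higher with each class letter: 2.29 ± 3.31, 6.08 ± 4.12, 7.63 ± 2.36 and 8.66 ± 1.80 in Flvcr-deleted classes A to D (SD over 18, 16, 9 and 5 cells), 1.60 ± 2.69, 5.67 ± 3.10, 9.11 ± 1.53 and 9.80 ± 0.52 in EPO-treated classes A to D (7, 11, 9 and 4 cells), and 0 in class A, 8.46 ± 1.86, 9.61 ± 1.60 and 10.99 ± 0.85 in wild-type classes B to D (6, 10, 19 and 13 cells). Class D exceeded class B by 2.57 in Flvcr-deleted, 4.13 in EPO-treated and 2.53 in wild-type cells. Kept genes, here the 2540 whose mean log2(RPKM + 1) was 1 or more, went the other way: class D minus B of their median was -0.43 in Flvcr-deleted, -1.36 in EPO-treated and -0.90 in wild-type cells.

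**Figure D1:**
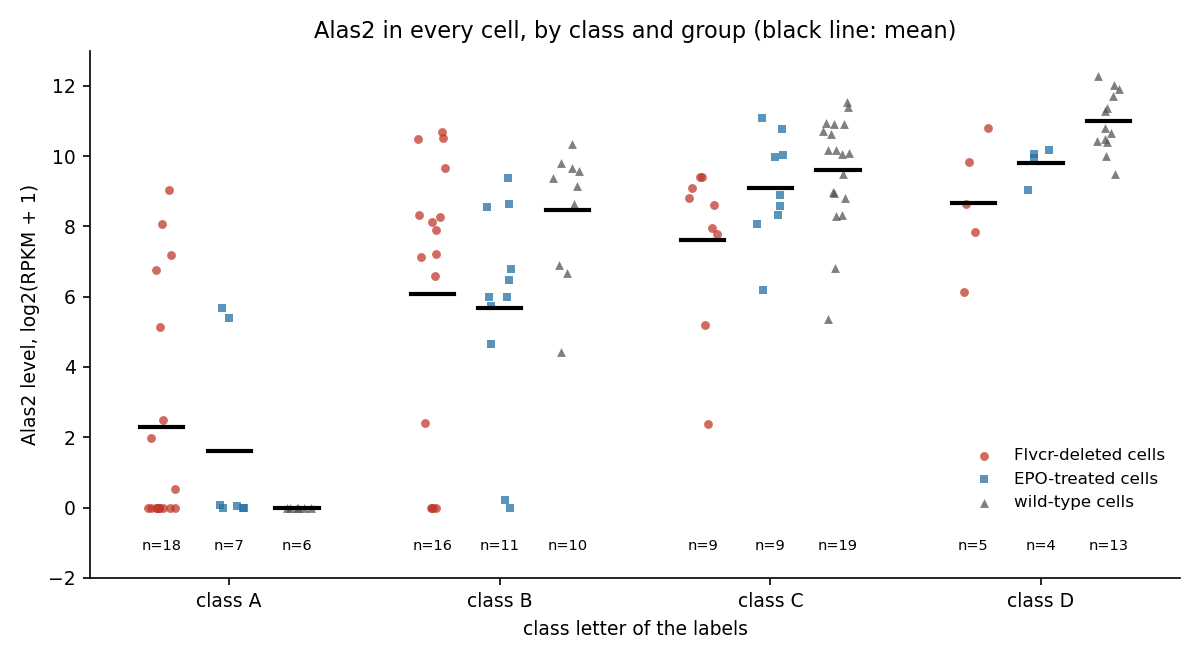
Alas2 level in log2(RPKM + 1) on the y axis for each of the 127 cells, by class letter and group; points are cells, black lines are means and n is the number of cells. The means of Flvcr-deleted and EPO-treated cells lay below those of wild-type cells in classes B to D, with overlap in each class, and class A was at 0 in all 6 wild-type cells.

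In class D the Alas2 RPKM of the 5 Flvcr-deleted cells was 69.5, 230, 401, 915 and 1790, that of the 4 EPO-treated cells was 522, 984, 1078 and 1147, and that of the 13 wild-type cells ran from 725 over a median of 1774 to 4941. Below the lowest wild-type cell lay 3 of 5 Flvcr-deleted and 1 of 4 EPO-treated cells, and the groups overlapped. Within a cell, Alas2 held a median rank of 92 among all genes in Flvcr-deleted (range 13 to 556), 21.5 in EPO-treated (19 to 60) and 16 in wild-type class D cells (9 to 38). A rank does not depend on how a cell was scaled. In class C, Alas2 RPKM was 4.23, 35.5, 221, 247, 388, 452, 542, 673 and 684 in Flvcr-deleted cells, 72.6, 266, 323, 382, 478, 1001, 1039, 1766 and 2171 in EPO-treated cells, and 40.0 to 2988 with a median of 1092 in wild-type cells. All 9 Flvcr-deleted class C cells lay below that wild-type median, as did 7 of 9 EPO-treated cells. Class B was more mixed: the range was 0 to 1661 with a median of 194 in Flvcr-deleted cells, 0 to 662 with a median of 63.0 in EPO-treated cells, and 20.5 to 1296 with a median of 617 in wild-type cells, and 3 of 16 Flvcr-deleted cells exceeded the highest wild-type cell.

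Averaged with equal weight over classes B, C and D, Alas2 differed by -2.23 between Flvcr-deleted and wild-type cells (class B -2.37, C -1.98, D -2.33), which is 4.69-fold lower in RPKM + 1. The class B value rested in large part on 4 low-globin Flvcr-deleted cells in which Alas2 was at 0. Each of these 4 cells had 8 to 10 of 12 erythroid markers detected, and 2455 to 3452 detected genes. Without them the average was -1.56, with classes C and D unchanged. Globin share itself ran with Alas2, at a Spearman's rho of 0.63 over 30 Flvcr-deleted class B to D cells. Leaving cells out by it thus acts on Alas2 as well. The other 12 Flvcr-deleted class B cells had a median of 292 RPKM, against 617 in wild-type class B cells. Between EPO-treated and wild-type cells Alas2 differed by -1.49 (B -2.78, C -0.51, D -1.19), or 2.81-fold lower. Between Flvcr-deleted and EPO-treated cells the value was -0.74, with 0.41 in class B, -1.48 in class C and -1.15 in class D; it was -0.06 without the 4 low-globin Flvcr-deleted class B cells. A gene counted as lower when the 3 classes had the same sign and their mean was at least 1 in size. By that rule Alas2 was lower in both contrasts with wild-type cells and not between Flvcr-deleted and EPO-treated cells. This was common: 48.3% of kept genes counted as lower and 3.74% as higher in Flvcr-deleted against wild-type cells, 42% and 0.512% in EPO-treated against wild-type cells, and 8.86% and 7.76% in Flvcr-deleted against EPO-treated cells. The median kept gene differed by -1.08 in Flvcr-deleted against wild-type cells, where Alas2 stood at -1.16 relative to it and 15.9% of kept genes had a lower value than Alas2. In EPO-treated against wild-type cells that median was -0.99, Alas2 stood at -0.50 relative to it and 29.1% of kept genes were lower. In Flvcr-deleted against EPO-treated cells they were -0.12, -0.62 and 20.7%. The place of Alas2 relative to the median gene was not stable across settings. In EPO-treated against wild-type cells it was -0.004 with a pseudocount of 0.1, 0.25 without class B and 0.30 with class A averaged in. In Flvcr-deleted against EPO-treated cells it was 0.23 without the low-globin cells. In Flvcr-deleted against wild-type cells it was -0.33 without the low-globin cells, with 39.5% of kept genes lower, and 0.11 with class A averaged in. The contrasts with wild-type cells share the wild-type cells.

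Cells of like complexity gave a wider gap. Restricted to class B to D cells in which 1000 to 2000 genes were detected, 12 Flvcr-deleted cells had Alas2 RPKM of 4.23 to 1790 with a median of 394, 12 EPO-treated cells had 24.3 to 1766 with a median of 386, and 18 wild-type cells had 812 to 4941 with a median of 1915. There the class-weighted difference was -2.63 between Flvcr-deleted and wild-type cells and -2.14 between EPO-treated and wild-type cells, while the median kept gene differed by -0.09 in the first of these contrasts and by -0.06 in the second. Choosing cells by their number of detected genes acts directly on the median gene, and it kept only wild-type cells of 812 RPKM or more, of 20.5 to 4941 in all wild-type class B to D cells. EPO-treated class D and wild-type class B each had 2 cells in this range. Without the low-globin Flvcr-deleted class B cells 7, 13, 16 and 40, in all of which Alas2 was at 0, the difference between Flvcr-deleted and wild-type cells over all cells was -1.56 and that of the median kept gene was -1.22.

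Set against β-globin within each cell, Alas2 had its lowest median in Flvcr-deleted cells. Hbb-b1, which encodes adult β-globin and whose reads may be split with its near-identical copy Hbb-b2, differed over classes B to D by 0.83 between Flvcr-deleted and wild-type cells and by 0.20 between EPO-treated and wild-type cells, opposite in sign to Alas2. Neither value reached the size of 1. In EPO-treated against wild-type class B cells Hbb-b1 differed by -0.44, the same sign as Alas2 there. Within a cell, log2 Alas2 minus log2 Hbb-b1 does not depend on scaling except through the pseudocount of 1. Its median over class B to D cells was -9.21 in Flvcr-deleted (range -13.99 to -6.68), -7.79 in EPO-treated (-13.53 to -3.76) and -6.20 in wild-type cells (-9.85 to -4.36). The groups overlapped: 5 of 24 EPO-treated cells and 31 of 42 wild-type ones lay above the highest Flvcr-deleted cell, and the rest lay within the Flvcr-deleted range. Its SD was 1.78 over 26 Flvcr-deleted cells with a globin share of at least 10%, 2.26 over 24 EPO-treated cells and 0.99 over 42 wild-type cells. Across class B to D cells of 1 chip, Spearman's rho of Alas2 with Hbb-b1 was 0.68 over 30 Flvcr-deleted, 0.65 over 21 EPO-treated and 0.82 over 42 wild-type cells, and with Ter119 it was 0.21 in Flvcr-deleted, 0.74 in EPO-treated and 0.54 in wild-type cells. These cells share a chip, and Alas2 also ran against the number of detected genes, with rho of -0.59 in Flvcr-deleted, -0.19 in EPO-treated and -0.80 in wild-type cells. Among the 26 Flvcr-deleted cells with a globin share of at least 10%, rho was 0.51 with Hbb-b1 and -0.01 with Ter119.

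**Figure D2:**
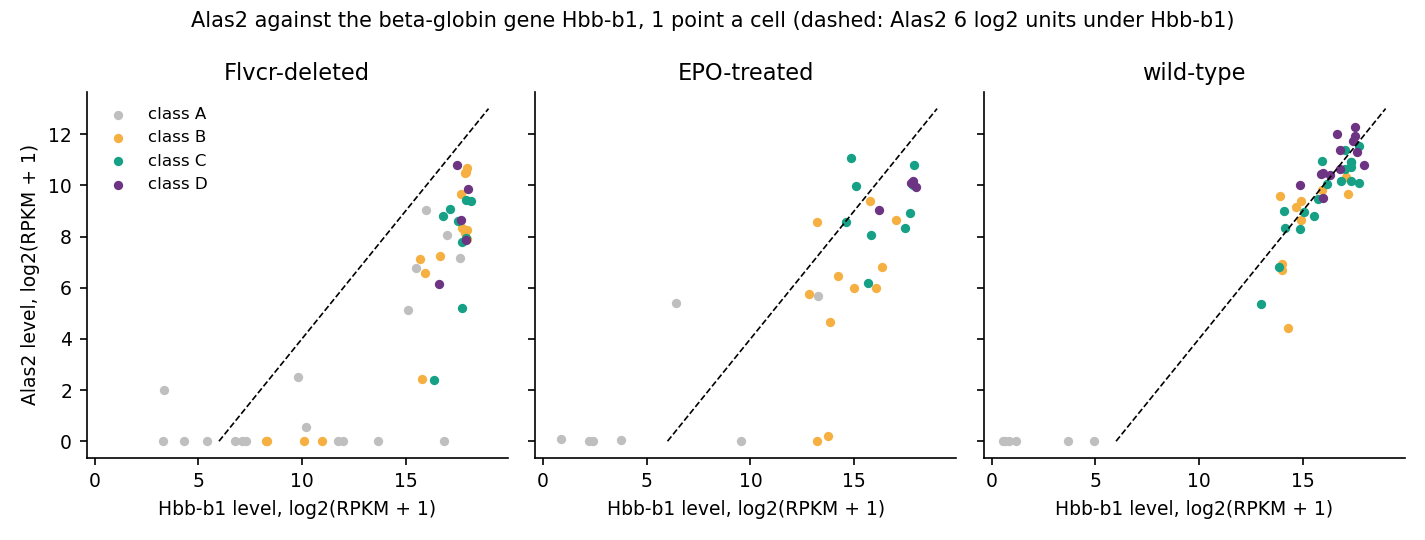
Alas2 level against Hbb-b1 level, both in log2(RPKM + 1), 1 panel a group and 1 point a cell, coloured by class; the dashed line marks Alas2 at 6 log2 units under Hbb-b1. Above that line lay 0 of 30 Flvcr-deleted, 3 of 24 EPO-treated and 16 of 42 wild-type class B to D cells.

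Class A showed the reverse order for Alas2, with globin beside it. Alas2 was detected in 7 of 18 Flvcr-deleted class A cells, at RPKM of 2.98, 4.64, 33.9, 108, 144, 269 and 525, in 2 of 7 EPO-treated cells, at 41.2 and 50.2, and in 0 of 6 wild-type cells, for which a count of 0 allows up to 50% by 3 counts of the total and up to 45.9% as an exact bound. The 18 Flvcr-deleted cells fall into 9 whose class label ends in a and 9 whose label ends in d, letters the sources used here do not explain. The 9 cells with suffix d stood apart, with 169 to 864 detected genes against 796 to 3069 in those with suffix a, and held the 3 lowest of the 7 values. Alas2 was detected in 3 of 9 cells with suffix d and 4 of 9 with suffix a, and the class A mean was 3.51 ± 4.09 (SD over 9 cells) without the suffix d cells. No cell with suffix d had Alas1 or Clpx. All 7 of these Flvcr-deleted cells and 1 of the 2 EPO-treated cells had a globin share of at least 10%, a share that 10 of 18 Flvcr-deleted (6 of 9 with suffix a), 1 of 7 EPO-treated and 0 of 6 wild-type class A cells had. Over all classes, Alas2 was detected in 33 of 36 Flvcr-deleted, 23 of 25 EPO-treated cells and 42 of 42 wild-type ones at or above that globin share. Below it, Alas2 was detected in 0 of 12 Flvcr-deleted, 1 of 6 EPO-treated and 0 of 6 cells of the wild-type group. With class A averaged in as a 4th class, the Flvcr-deleted minus wild-type difference was -1.10, against -1.21 for the median kept gene, and without the suffix d cells it was -0.80, against -1.03. The part of cell makeup in class A was not tested.

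Of the enzymes after ALA synthase 6 are described here: Alad, Uros and Urod of the cytosol, then Cpox, Ppox and Fech of the mitochondrion, where Fech inserts iron. All 6 counted as lower in Flvcr-deleted against wild-type cells, beside 48.3% of kept genes, with a median of -2.94 against -1.08 over kept genes. Ppox differed by -5.33, Fech by -3.55, Alad by -3.00, Urod by -2.88, Uros by -2.83 and Cpox by -1.74. By this mean of classes B to D, Alas2 at -2.23 was less far below wild-type cells than all of these but Cpox. The order was another in class D. There Alas2, at -2.33, was further below wild-type cells than Uros (-2.12), Alad (-1.66), Cpox (-1.61) and Urod (-0.51). Only Ppox, at -4.77, and Fech, at -4.48, were further below in that class. In EPO-treated against wild-type cells 4 of 6 counted as lower, beside 42% of kept genes, with a median of -1.97; Cpox, at 0.32, and Ppox, at -2.04 with a value of 0.70 in class D, did not. Between Flvcr-deleted and EPO-treated cells 3 of 6 counted as lower, beside 8.86% of kept genes, Ppox at -3.29, Cpox at -2.06 and Alad at -1.38. Fech was detected in 14 of 30 Flvcr-deleted, 17 of 24 EPO-treated and 40 of 42 wild-type class B to D cells. A median of 4 of the 6 enzymes was detected in a Flvcr-deleted class B to D cell (range 1 to 6), 5 in an EPO-treated cell (2 to 6) and 6 in a wild-type cell (5 to 6). All 6 were detected in 1 of 30 Flvcr-deleted, 7 of 24 EPO-treated cells and 38 of 42 wild-type ones. With 1000 to 2000 genes detected in the cell, it was 1 of 12 in Flvcr-deleted, 3 of 12 in EPO-treated and 15 of 18 in wild-type cells. Alas2's share of the summed RPKM of these 7 genes had a median of 51.1% in Flvcr-deleted, 30.0% in EPO-treated and 48.4% in wild-type class B to D cells, but the classes differed. In class B it was 44.9% in Flvcr-deleted, 7.80% in EPO-treated and 35.4% in wild-type cells, and in class C it was 59.3% in Flvcr-deleted, 40.5% in EPO-treated and 41.6% in wild-type cells. In class D the order of Flvcr-deleted and wild-type cells was turned, at 42.9% in Flvcr-deleted, 50.7% in EPO-treated and 61.1% in wild-type cells.

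**Figure D3:**
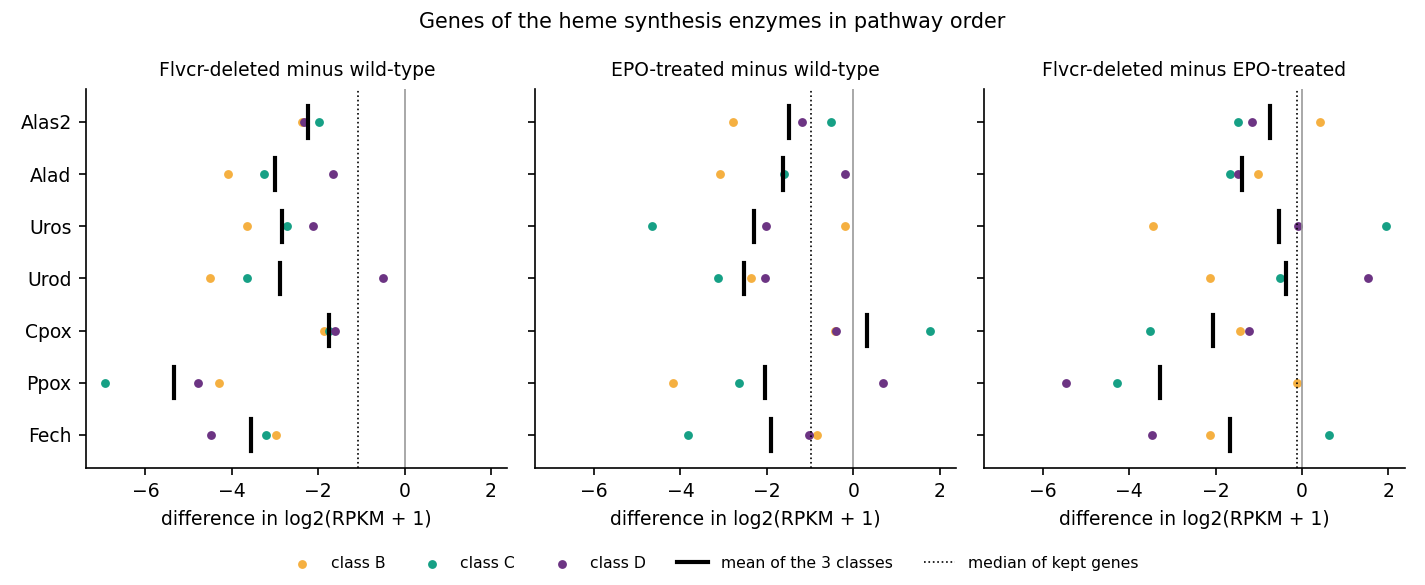
Difference in mean log2(RPKM + 1) on the x axis for Alas2 and 6 later enzymes of heme synthesis in pathway order, 1 panel a contrast; coloured points are classes B, C and D, black ticks their mean, the dotted line the median of kept genes. In Flvcr-deleted minus wild-type all 7 genes lay below 0 in each of the 3 classes.

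Genes that feed the first step or control it were a mixed group. Of the substrate supply and carrier list, 7 of 10 genes were kept, and 4 of these 7 counted as lower in each contrast with wild-type cells, near the 48.3% of kept genes in Flvcr-deleted and 42% in EPO-treated cells, with medians of -1.18 in Flvcr-deleted and -1.41 in EPO-treated cells. Slc25a38, the carrier that brings glycine into the mitochondrion, differed most, by -3.70 in Flvcr-deleted and -2.75 in EPO-treated against wild-type cells; Dld and Dlst of the α-ketoglutarate dehydrogenase complex differed in Flvcr-deleted against wild-type cells by -1.81 for Dld and -1.67 for Dlst, and Sucla2, a subunit of succinyl-CoA ligase, by -1.18. None of the 7 counted as lower or higher between Flvcr-deleted and EPO-treated cells, beside 8.86% and 7.76% of kept genes. Among known regulators of the ALA synthase genes, 5 of 14 were kept and 3 of these 5 counted as lower in each contrast with wild-type cells. This was again beside 48.3% and 42% of kept genes, so neither list stood apart by its count. The median of the 5 regulators was lower than that of kept genes, at -2.80 against -1.08 in Flvcr-deleted and -2.31 against -0.99 in EPO-treated cells. Gata1, the erythroid master factor whose motif stands upstream of Alas2, differed by -4.99 in Flvcr-deleted and -4.16 in EPO-treated against wild-type cells. It was detected in 14 of 30 Flvcr-deleted, 13 of 24 EPO-treated and 41 of 42 wild-type class B to D cells. Across class B to D cells of 1 chip, Spearman's rho of Alas2 with Gata1 was -0.10 in Flvcr-deleted, 0.11 in EPO-treated and 0.03 in wild-type cells. Class D minus B of Gata1 was -0.83 in Flvcr-deleted, -3.51 in EPO-treated and 0.04 in wild-type cells, while Alas2 was higher in class D in each group. A link of Gata1 to the Alas2 level was not tested. Klf1 differed by -3.12 in Flvcr-deleted and -2.36 in EPO-treated against wild-type cells. Nrf1, whose motif core stands upstream of Clpx and in the first exon of the Alas1 transcript read here, differed by -2.80 in Flvcr-deleted and -2.31 in EPO-treated against wild-type cells. Nfe2 and Tal1 did not count, at -0.97 and -0.88 in Flvcr-deleted against wild-type cells. The regulators of Alas1 known from liver (Nr1d1, Nr1d2, Ppargc1a, Ppargc1b and Foxo1), the heme sensor gene Bach1, the heme oxygenase gene Hmox1 and the iron regulatory protein genes Aco1 and Ireb2 were too low to be kept. Of the iron uptake list 2 of 3 genes were kept. In Flvcr-deleted against wild-type cells 1 of these 2 counted as lower, near the 48.3% of kept genes. It was Slc11a2, the endosomal iron transporter, at -1.78. The transferrin receptor gene Tfrc did not count, at -1.17 with 0.06 in class D.

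Alas1 was found in few cells and in none of the Flvcr-deleted group. It was detected in 0 of 48 cells of the Flvcr-deleted group (a count of 0 allows up to 6.25% by 3 counts of the total, exact interval 0% to 7.40%), in 3 of 31 of the EPO-treated group (9.68%, exact interval 2.04% to 25.8%) and in 6 of 48 of the wild-type group (12.5%, 4.73% to 25.2%), and the exact intervals overlapped. The highest Flvcr-deleted values were 0.947 RPKM in class A cell 19 and 0.136 RPKM in class B cell 32. In EPO-treated cells it stood at 418 RPKM in cell 4 and 2.59 in cell 35, both class A, and at 108 in class B cell 5. In wild-type cells it stood at 193 and 5.36 in class A cells 13 and 28, at 51.3 in class B cell 37, and at 7.55, 19.5 and 5.58 in class C cells 7, 15 and 36. The 2 highest cells were thus of class A, and no class D cell of any group reached 1 RPKM. Both EPO-treated class A cells with Alas1 also carried the granulocyte genes Mpo, at 4700 and 2182 RPKM, and Elane, at 5128 and 5056 RPKM, and wild-type cell 13 carried Mpo at 2291 RPKM; wild-type cell 28 carried neither gene. Mpo also stood without Alas1 in 4 class A cells, at 332 RPKM in Flvcr-deleted cell 8, 2022 in EPO-treated cell 10, and 860 and 2778 in wild-type cells 9 and 31, so 3 of 7 class A cells with Mpo had Alas1. Among class B to D cells, Mpo was below 1 RPKM in the EPO-treated cell and in all 4 wild-type cells with Alas1.

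In classes B to D, Alas1 and Alas2 were both detected in 0 of 30 Flvcr-deleted, 1 of 24 EPO-treated cells and 4 of 42 wild-type ones. Alas1 was in no further class B to D cell, and Alas2 was in 26 of 30 Flvcr-deleted, 22 of 24 EPO-treated cells and 42 of 42 wild-type ones, so cells with Alas1 alone had little room to occur. RPKM is per length, so the levels of the 2 genes can be set side by side: the per-cell difference of log2(RPKM + 1), Alas2 minus Alas1, had a median of 8.05 in Flvcr-deleted (range 0 to 10.81), 8.57 in EPO-treated (-0.77 to 11.09) and 10.13 in wild-type class B to D cells (1.00 to 12.27). The Flvcr-deleted value of 0 belongs to cells with neither gene. EPO-treated class B cell 5 was the only class B to D cell in which Alas1, at 108 RPKM, exceeded Alas2, at 63.0 RPKM. In class A the order was turned in 2 of 7 EPO-treated cells and 2 of 6 wild-type ones, which had Alas1 and no Alas2. Over classes B to D, Alas1 differed by -0.36 between Flvcr-deleted and wild-type, -0.16 between EPO-treated and wild-type and -0.21 between Flvcr-deleted and EPO-treated cells, none of them past the size of 1. Its SD over cells was 1.24 in wild-type cells. The number of detected genes moved with Alas1: all 4 wild-type class B to D cells with Alas1 had at least 2768 detected genes, and 0 of 18 wild-type cells with fewer than 2000 had it. Only 7 of 30 Flvcr-deleted class B to D cells reached 2000 detected genes, against 24 of 42 wild-type cells, and 0 of those 7 Flvcr-deleted cells and 4 of those 24 wild-type cells had Alas1, so a difference in share was not detectable at this depth. Those 7 Flvcr-deleted cells included the low-globin class B cells 7, 13, 16 and 40, so they were unlike the wild-type cells in globin share as well.

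**Figure D4:**
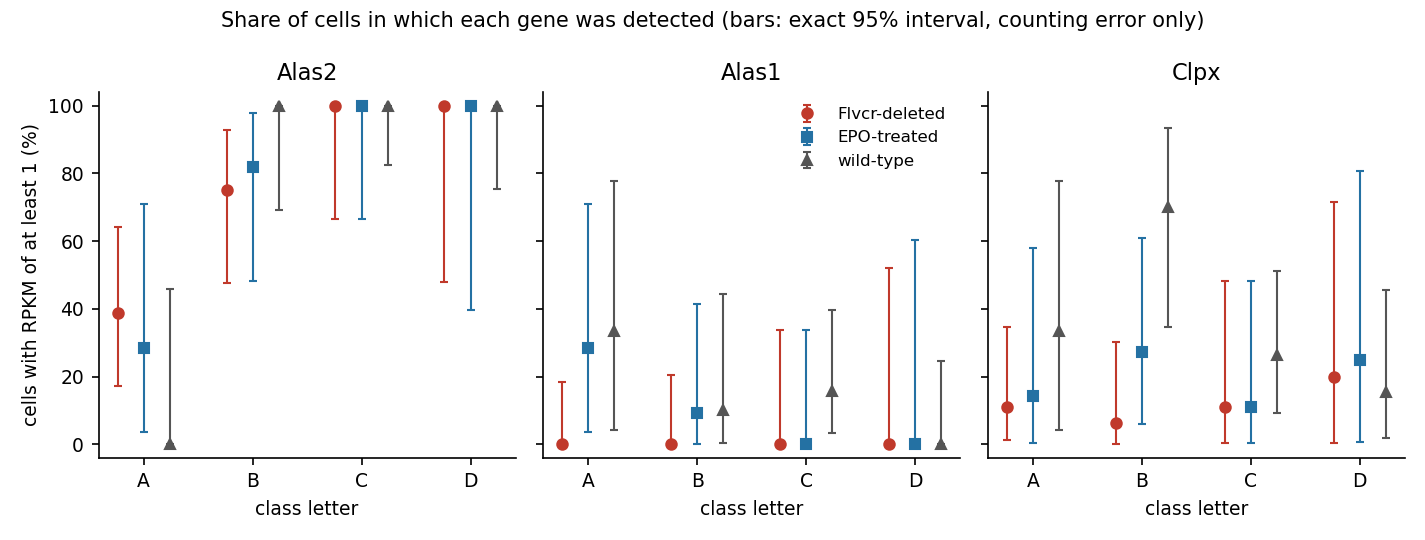
Share of cells with an RPKM of at least 1 on the y axis, in percent, for Alas2, Alas1 and Clpx by class letter and group; bars are exact 95% intervals that cover counting error only. Clpx in class B stood at 6.25% in Flvcr-deleted, 27.3% in EPO-treated and 70.0% in wild-type cells.

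Clpx was most often found in wild-type class B cells. Its share of cells was 10.4% in the Flvcr-deleted group (5 of 48 cells, exact interval 3.47% to 22.7%), 19.4% in the EPO-treated group (6 of 31, 7.45% to 37.5%) and 33.3% in the wild-type group (16 of 48, 20.4% to 48.4%). From class A to D it was detected in 2 of 18, 1 of 16, 1 of 9 and 1 of 5 Flvcr-deleted cells, in 1 of 7, 3 of 11, 1 of 9 and 1 of 4 EPO-treated cells, and in 2 of 6, 7 of 10, 5 of 19 and 2 of 13 wild-type cells. In class B the exact interval was 0.158% to 30.2% in Flvcr-deleted cells, 6.02% to 61.0% in EPO-treated cells and 34.8% to 93.3% in wild-type cells. These intervals are over cells of 1 sample a group and do not compare conditions, and the median number of detected genes in class B was 1235 in Flvcr-deleted, 1771 in EPO-treated and 3033.5 in wild-type cells. The class B cells with Clpx had 72.5 RPKM in 1 Flvcr-deleted cell, 1.07, 2.07 and 15.9 RPKM in 3 EPO-treated cells, and 5.85, 8.97, 14.4, 21.1, 45.3, 75.9 and 78.2 RPKM in 7 wild-type cells. The level of the 1 Flvcr-deleted cell was within the range of these wild-type cells, and fewer cells had it. Class D minus B was 0.38 in Flvcr-deleted and 0.41 in EPO-treated cells, each resting on 1 class D cell with Clpx, at 17.9 RPKM in Flvcr-deleted cell 15 and 18.4 RPKM in EPO-treated cell 14. In wild-type cells it was -2.56, against -0.90 for the median kept gene and opposite in sign to Alas2.

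Averaged over classes B to D, Clpx differed by -1.30 between Flvcr-deleted and wild-type cells (B -2.80, C -1.24, D 0.14), -1.14 between EPO-treated and wild-type cells (B -2.60, C -1.17, D 0.36) and -0.16 between Flvcr-deleted and EPO-treated cells. The sign in class D kept it from counting as lower. It turned on those single cells: without Flvcr-deleted cell 15 the value was -1.58, and without EPO-treated cell 14 it was -1.49, both with the same sign in all 3 classes. With a mean under 1 over all cells, Clpx and Alas1 were not among the kept genes, so they have no place in the counts above. The number of detected genes moved with Clpx: in wild-type class B to D cells it was detected in 8 of 9 cells with at least 3000 detected genes and in 3 of 18 cells with fewer than 2000. Among class B to D cells with at least 2000 detected genes, the count was 1 of 7 in Flvcr-deleted, 3 of 6 in EPO-treated and 11 of 24 in wild-type cells, with overlapping exact intervals of 0.361% to 57.9% in Flvcr-deleted, 11.8% to 88.2% in EPO-treated and 25.6% to 67.2% in wild-type cells. Among those with fewer it was 2 of 23 in Flvcr-deleted, 2 of 18 in EPO-treated and 3 of 18 in wild-type cells. The 7 Flvcr-deleted cells with at least 2000 detected genes included the low-globin class B cells 7, 13, 16 and 40. The part of depth in the class B difference was not tested.

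**Figure D5:**
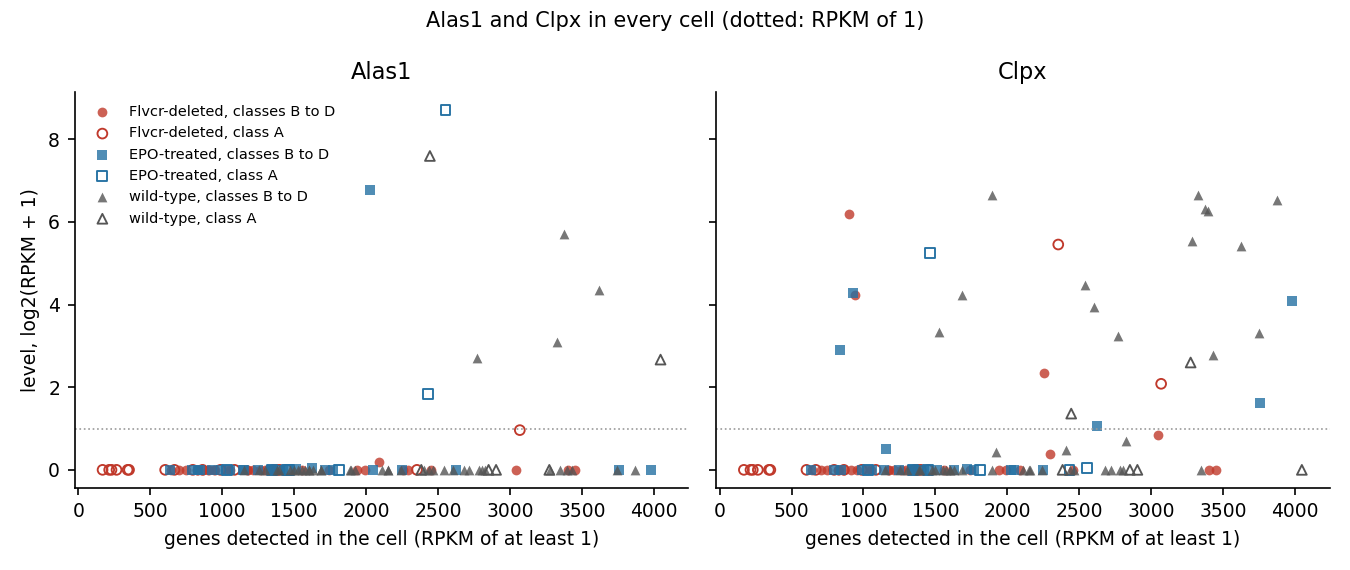
Level of Alas1 and of Clpx in log2(RPKM + 1) on the y axis against the number of genes detected in the cell, 1 point a cell, filled for classes B to D and open for class A; the dotted line is an RPKM of 1. All 4 wild-type class B to D cells with Alas1 had at least 2768 detected genes, and 8 of 9 wild-type class B to D cells with at least 3000 detected genes had Clpx.

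Clpp, the protease with which CLPX forms a complex, was detected in 8 of 30 Flvcr-deleted, 5 of 24 EPO-treated and 20 of 42 wild-type class B to D cells, and Clpx with it in 0 Flvcr-deleted, 2 EPO-treated and 10 wild-type cells. Clpp differed by -0.82 between Flvcr-deleted and wild-type cells, which was under the size of 1 (class D at 0.00). Between EPO-treated and wild-type cells it differed by -1.38, which was past that size. Of the list of mitochondrial proteases and chaperones 6 of 13 genes were kept; 2 of the 6 counted as lower in Flvcr-deleted against wild-type cells, beside 48.3% of kept genes, and 3 in EPO-treated against wild-type cells, beside 42%. The 2 were Pmpca, a subunit of the peptidase that trims imported precursors, at -1.59, and Yme1l1, an inner-membrane protease, at -1.41. The matrix chaperone genes Hspd1 and Hspe1 stood at -0.51 and 0.65, and the median of the 6 was -0.72, above the -1.08 of all kept genes. In wild-type classes B to D all 4 cells with Alas1 also had Clpx and Alas2, while 10 further cells had Clpx and no Alas1. All 3 Flvcr-deleted, 5 EPO-treated and 14 wild-type class B to D cells with Clpx had Alas2, but so did 26 of 30 Flvcr-deleted, 22 of 24 EPO-treated cells and 42 of 42 wild-type ones of these classes in all.

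Ordered by mean over the 12 sets of 1 class in 1 group, Alas2 ran from wild-type class D (10.99) over EPO-treated class D (9.80), wild-type class C (9.61), EPO-treated class C (9.11), Flvcr-deleted class D (8.66), wild-type class B (8.46), Flvcr-deleted class C (7.63), Flvcr-deleted class B (6.08) and EPO-treated class B (5.67) to Flvcr-deleted (2.29), EPO-treated (1.60) and wild-type class A (0). Most neighbours in this order differed by less than the SD over cells of either set; the exceptions were wild-type above EPO-treated class D, EPO-treated class B above Flvcr-deleted class A, and EPO-treated above wild-type class A. For Clpx only wild-type class B (3.26) and wild-type class C (1.50) stood above 1.07, and every step in its order was smaller than the SD of both sets. For Alas1 the highest sets were class A of EPO-treated (1.51) and wild-type cells (1.71), and 4 sets were at 0.

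Over these 12 means the kept genes most like Alas2 by Pearson's r included Rhd (0.962), Birc5 (0.960), Slc4a1 (0.955) and Ube2c (0.955). Rhd and Slc4a1 encode red cell membrane proteins (a Rhesus protein and the band 3 anion exchanger), and Birc5 and Ube2c act in mitosis. Over single cells Spearman's rho with Alas2 was 0.76 for Rhd and 0.47 for Birc5 (127 cells). Over classes B to D, Slc4a1 differed by -2.50 between Flvcr-deleted and wild-type cells, Birc5 by -2.32, Rhd by -1.68 and Ube2c by -0.82. Among those most like Alas1 were Ivns1abp, Pds5a, Ap3s1 and Pdia3, with r of 0.940 to 0.971, and most like Clpx were Fbxo3, Xpnpep1, Cgrrf1, Rnf181 and Bckdk, with r of 0.872 to 0.896. Among the members r was -0.71 for Alas2 with Alas1, 0.26 for Alas2 with Clpx and 0.15 for Alas1 with Clpx. The 12 means share chips and depth, and those of Alas1 and Clpx rest on 9 and 27 cells with the gene detected.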

How the data were processed

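Marrow cells were captured on a Fluidigm C1 system and imaged for Ter119, and SMART-Seq cDNA was sequenced as Nextera XT libraries, per the labels' protocols. The authors deposited RPKM in 1 table, with 34898 transcript rows and a column a cell; 4 further columns matched no sample and were not used. The submitters' processing notes name TopHat2 2.0.9 and mm9; no source used here gives the counting tool or the read totals. All EPO-treated RPKM above 0 had at most 2 decimals, against 0.00247% of Flvcr-deleted and 0.00274% of wild-type values.

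Where a symbol had several rows, the row of highest mean was used; each member had 2 rows with near-constant ratios. Values were log2(RPKM + 1), which understates the change of low genes. Differences were taken between means within a class and averaged over classes B, C and D. Genes with a mean of at least 1 were kept (2540). Named genes were the members, up to 4 kept genes of largest difference in a list, any gene of the heme synthesis, protease and regulator lists, and up to 5 most alike genes for each member, some of which are not reported here; Hbb-b1, Mpo, Elane and Gp9 were added after their values were seen. The members and lists were chosen with earlier results of these data known. The alternatives are in the closing section. Python 3.11.15, numpy 2.4.6, pandas 2.3.3 and scipy 1.17.1 were used, and the computation was checked on simulated data.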

Additional observations from a re-analysis of the deposited data

Results flagged for a closer look

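Of 17 sets of cells tested, each 1 gene in 1 class of 1 group with 4 to 10 cells, 9 held a cell far above the others by Dixon's criterion. Chance meets it in about 1 of 20 sets of normally distributed values, a rate that cannot be set beside these sets, which are mostly at 0. In 5 of the 9 every other cell was at 0, so a single cell meets the criterion whatever its level. For Alas1, on the log2(RPKM + 1) scale, they were EPO-treated class A cell 4 at 8.71, EPO-treated class D cell 27 at 0.029, which is below detection, wild-type class A cell 13 at 7.60 and wild-type class B cell 37 at 5.71. For Clpx they were Flvcr-deleted class C cell 43 at 2.34, Flvcr-deleted class D cell 15 at 4.24, EPO-treated class A cell 20 at 5.24, EPO-treated class C cell 24 at 2.91 and EPO-treated class D cell 14 at 4.28. The next highest cells stood at 1.84 in the set of EPO-treated cell 4 and at 2.67 in that of wild-type cell 13.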

How the results depend on the processing

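No paired analysis was possible because each group is 1 sample, its cells carry numbers that pair nothing, and no test was made. Alas2 was lower in Flvcr-deleted than in wild-type cells under all 14 alternatives run, with differences of -3.13 to -0.80, but with class A averaged in the classes did not share a sign, whether with (-1.10) or without (-0.80) its suffix d cells, an alternative chosen after seeing the data. EPO-treated minus wild-type ran from -2.14 to -0.72 and no longer counted as lower with class A averaged in (-0.72), without class B (-0.85) or with cells scaled to their sum without globins (-1.09). Flvcr-deleted minus EPO-treated ran from -1.48 to -0.03 and counted as lower without class B (-1.31) and with cells scaled to 1 sum (-1.48). Clpx counted as lower in Flvcr-deleted against wild-type cells with a pseudocount of 0.1 (-2.17), without class D (-2.02) and with cells scaled to 1 sum (-1.55), and in EPO-treated against wild-type cells without class D (-1.89). Leaving out class D cells of the Flvcr-deleted and EPO-treated groups in turn gave, in Flvcr-deleted against wild-type cells, -2.41 to -2.02 for Alas2, -1.58 to -1.23 for Clpx and -0.36 to -0.36 for Alas1. In EPO-treated against wild-type cells it gave -1.53 to -1.41 for Alas2, -1.49 to -1.02 for Clpx and -0.16 to -0.16 for Alas1, and in Flvcr-deleted against EPO-treated cells -0.92 to -0.53, -0.44 to 0.20 and -0.21 to -0.20 for the same genes. Without class A, Alas2 was detected in 86.7% of Flvcr-deleted cells, 91.7% of EPO-treated cells and 100% of wild-type cells. With a pseudocount of 10, wild-type class A minus B for Alas2 was -5.22. With no filter on low values, 1 of the 5 genes most like Alas1 and 0 of the 5 most like Clpx were shared, against 5 of 5 for Alas2. With a size of at least 2, 20.9% of kept genes counted as lower in Flvcr-deleted against wild-type cells. Beside this stood 1 of 7 in the substrate list and 0 of 6 in the protease list. In EPO-treated against wild-type cells it was 13.4% of kept genes. Beside that stood 2 of 6 in the heme synthesis, 1 of 7 in the substrate and 0 of 6 in the protease list. In Flvcr-deleted against EPO-treated cells it was 1.54%, beside 0 of 6 in the protease and 0 of 5 in the regulator list. At that share a count of 0 in such short lists does not set them apart. The cause of these changes was not tested. Depth per cell is unknown, so a cell listed without Alas1 or Clpx may have had too few reads.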
